A study of Bubalus bubalis with 6 samples.

Results

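The miR-99, miR-100 and miR-125 families were examined in cell-free saliva of Murrah buffaloes (Bubalus bubalis). The rows were selected by name from the deposited table of 273 miRNAs, and 5 of them carried a family name: miR-99a-5p, miR-99b, miR-100, miR-125a and miR-125b, each listed with the bovine prefix. The families themselves were picked from earlier results on the estrus and diestrus values of these same libraries, so the difference between phases is given below as a description and is not used as support for anything. Saliva came from 3 healthy wild-type animals, each sampled once at estrus, the phase of receptivity around ovulation, and once at diestrus, the luteal phase. That gave 3 libraries per phase, and a library is named below by its phase and its animal. No treatment or genetic change was given for any group, and ages were not stated in the sources used here. All values are relative to the other miRNAs counted in the same library, so less of a miRNA and more of the rest cannot be told apart.

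miRNAs are short RNAs that guide Argonaute proteins to messenger RNAs, and the bases near the 5′ end, called the seed, set which messages are bound. miR-99a, miR-99b and miR-100 share a seed and are nearly identical over their length; their known targets include MTOR and FGFR3. miR-125a and miR-125b are the mammalian relatives of lin-4, the first miRNA described in worms, and have been studied in blood cell formation, in differentiation and in inflammatory signalling. The families are linked by position as well. In mammals miR-99a lies in a cluster with let-7c and a miR-125b copy, miR-100 in a cluster with a let-7a copy and the other miR-125b copy, and miR-99b in a cluster with let-7e and miR-125a, and members of a cluster can be transcribed together. Mature sequences and buffalo positions of these miRNAs were not analysed here.

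Each value of the deposited table was a whole number of reads divided by a size factor of the library, so reads could be recovered. The libraries held 16874, 6749 and 27036 reads at estrus and 3015, 5548 and 5055 reads at diestrus, in the order of animals 1, 2 and 3. All estrus libraries were deeper than all diestrus libraries, so depth and phase cannot be told apart. A limit of 3 reads, used below as the detection floor, was worth from 0.0111% of reads in the estrus library of animal 3 to 0.0995% in the diestrus library of animal 1. A single abundant miRNA, miR-1246, took 55.0% to 76.2% of the reads at diestrus and 1.20% to 20.0% at estrus, which lowers the share of every other miRNA in the diestrus libraries. Shares are therefore also given over reads other than miR-1246. Intervals in this text cover counting error only, not differences between animals.

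The 5 members together were abundant in 2 libraries and scarce in 4. They held 11.3% of reads in the estrus library of animal 1 (95% Wilson interval 10.9 to 11.8) and 4.83% in that of animal 3 (4.58 to 5.09), but 0.133% in that of animal 2 (0.0702 to 0.253). At diestrus they held 0.299%, 0.252% and 0.356% in animals 1, 2 and 3, resting on 9, 14 and 18 reads. The estrus library of animal 2, with 9 member reads, thus had the lowest measured share of all 6, and the phases overlapped. Its interval overlapped those of all 3 diestrus libraries. Within animal 2 the estrus share was 0.528 times the diestrus share (exact 95% interval 0.202 to 1.31), and this interval includes 1. Averaged over animals, the members took 5.43% ± 5.63 of reads in the estrus libraries and 0.302% ± 0.052 in the diestrus libraries (SD, n = 3 each). The difference between these means, 5.13 percentage points, was smaller than the spread between the estrus libraries, and it was 2.18 without the estrus library of animal 1. Over reads other than miR-1246 the members held 11.5%, 0.167% and 4.92% at estrus and 1.26%, 0.560% and 1.35% at diestrus. The gap between phases was narrower on that scale in animals 1 and 3, and animal 2 remained lower at estrus. Without miR-99a-5p the other 4 members held 0.714%, 0.148% and 4.72% of these reads at estrus. At diestrus these 4 held 1.12%, 0.560% and 1.27%. Their sum was then higher at estrus only in animal 3, and in animal 1 the ratio was 0.640 (exact 95% interval 0.314 to 1.52).

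**Figure D1:**
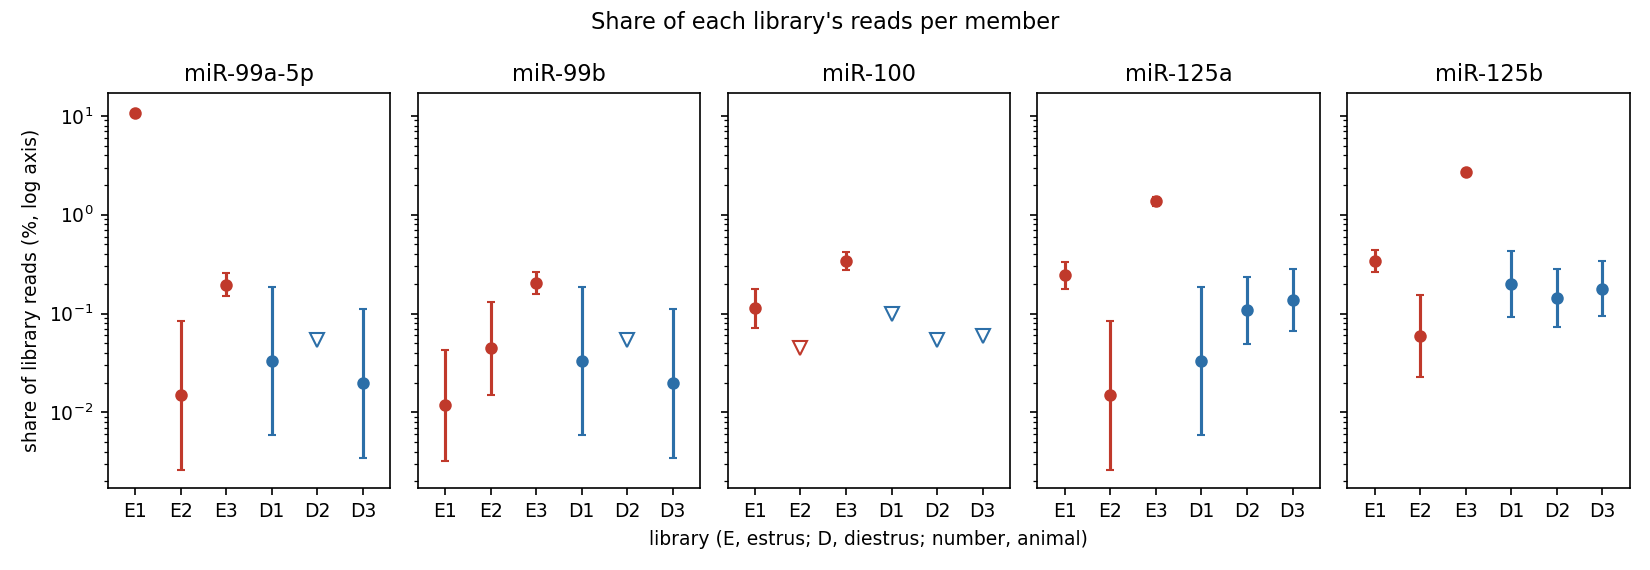
Share of each library's reads (percent, log axis) for the 5 members in the 6 libraries; points are measured shares, bars are 95% Wilson intervals for counting error, red is estrus, blue is diestrus, and an open triangle marks a library with 0 reads, drawn at the floor of 3 reads. miR-99a-5p stands at 10.6% in the estrus library of animal 1 and below 0.2% in the other 5, while miR-125a and miR-125b are highest in the estrus library of animal 3.

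miR-99a-5p varied most among the members. It had 1794 reads in the estrus library of animal 1, 1 in that of animal 2 and 53 in that of animal 3, against 1, 0 and 1 reads at diestrus. On the deposited scale these were 707, 1.81 and 9.54 normalized counts at estrus and 2.85, 0 and 1.72 at diestrus. In the first of these libraries miR-99a-5p held 10.6% of reads (95% Wilson interval 10.2 to 11.1) and ranked 2 among 172 detected miRNAs, and in the estrus library of animal 3 it held 0.196% (0.150 to 0.256) and ranked 51 among 228. The other 4 libraries were at or below 1 read, under the floor, and did not differ from each other within counting error. Within animal 1 the share at estrus was 321 times that at diestrus (exact 95% interval 57.5 to 12668), and within animal 3 it was 9.91 times (1.70 to 399), and both ratios rest on 1 diestrus read. Over reads other than miR-1246 the ratios were 77.2 (13.8 to 3049) in animal 1 and 2.67 (0.458 to 107) in animal 3, and the latter interval includes 1. In animal 2, 1 read stood against 0, so no ratio is given. The deposited mean of 239 ± 405 normalized counts at estrus (SD, n = 3) was therefore almost wholly 1 library.

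miR-100, which is close to miR-99a in sequence, followed another order. It had 19, 0 and 92 reads at estrus and 0 reads in all 3 diestrus libraries. The estrus shares were 0.113% in animal 1 (95% Wilson interval 0.0721 to 0.176) and 0.340% in animal 3 (0.278 to 0.417), so miR-100 was highest in animal 3, where miR-99a-5p was not. In animal 3 the measured estrus share of miR-100 was 5.73 times the floor of 3 reads in the diestrus library of the same animal. Over reads other than miR-1246 it was 1.54 times that floor. These ratios leave out the counting error of the estrus reads, so they are no lower bounds. As a share of all reads, the diestrus upper limit in animal 3 was 0.0759%, below the estrus interval. In animal 1 the estrus share was 1.13 times the diestrus floor, but the diestrus upper limit of 0.127% lay inside the estrus interval. There, 7.49 normalized counts at estrus lay below the diestrus floor of 8.55. Likewise 0.114% of reads other than miR-1246 lay below a floor of 0.418%. A difference was thus not detectable in animal 1 on any of these scales. In animal 2 it had 0 reads in both phases, with 95% Wilson upper limits of 0.0569% at estrus and 0.0692% at diestrus. Because miR-99a-5p and miR-100 are nearly identical and the counting rule is not given in the sources used here, some reads may have been credited to the wrong one.

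miR-99b was scarce in 5 libraries. It had 2, 3 and 55 reads at estrus and 1, 0 and 1 reads at diestrus, or 0.788, 5.42 and 9.90 normalized counts at estrus and 2.85, 0 and 1.72 at diestrus. Only the estrus library of animal 3 was above the floor, with 0.203% of reads (95% Wilson interval 0.156 to 0.265). In the estrus library of animal 1, where miR-99a-5p had 1794 reads, miR-99b had 2. In animal 1 it held 0.0119% of estrus reads and 0.0332% of diestrus reads, and with an exact 95% interval of their ratio from 0.0186 to 21.1 the direction was not measurable at this depth. In animal 3 the estrus share was 10.3 times the diestrus share (1.77 to 413), against 1 read, and 2.77 times over reads other than miR-1246 (0.476 to 111).

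miR-125b was the most evenly present member and had at least 4 reads in every library. Its reads in the estrus libraries were 57, 4 and 736, and in the diestrus libraries 6, 8 and 9, for animals 1, 2 and 3. As shares these were 0.338%, 0.0593% and 2.72% at estrus and 0.199%, 0.144% and 0.178% at diestrus. The estrus library of animal 3 stood above the other 5 (95% Wilson interval 2.54 to 2.92), where miR-125b ranked 8 among 228 detected miRNAs. The 3 diestrus libraries had overlapping intervals, and the estrus library of animal 1 (0.261 to 0.437) overlapped each of them. Within animals the estrus share was 15.3 times the diestrus share in animal 3 (exact 95% interval 8.01 to 33.6). It was 1.70 times in animal 1 (0.734 to 4.82) and 0.411 times in animal 2 (0.0906 to 1.53), and both of these intervals include 1. Over reads other than miR-1246 the ratio was 4.12 in animal 3 (2.16 to 9.04) and 0.232 in animal 2 (0.0510 to 0.864). The direction in animal 1 turned on that scale, with 0.342% at estrus, 0.837% at diestrus and a ratio of 0.409 (0.177 to 1.16).

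As a share of all reads miR-125a, like miR-125b, was highest in the estrus library of animal 3, next in that of animal 1 and lowest in that of animal 2. At estrus it had 41, 1 and 370 reads, and 1, 6 and 7 at diestrus. Its share was 1.37% in the estrus library of animal 3 (95% Wilson interval 1.24 to 1.51), 0.243% in that of animal 1 and 0.0148% in that of animal 2. At diestrus it was 0.0332%, 0.108% and 0.138%. Within animal 3 the estrus share was 9.88 times the diestrus share (exact 95% interval 4.75 to 24.8), and within animal 1 it was 7.33 times (1.24 to 296), the latter against 1 read. In animal 2 it was 0.137 times (0.00298 to 1.13). Over reads other than miR-1246 these ratios were 2.66 in animal 3 (1.28 to 6.66), 1.76 in animal 1 (0.299 to 71.3) and 0.0772 in animal 2 (0.00168 to 0.636). miR-125b had more reads than miR-125a in each of the 6 libraries. In the 4 libraries with at least 10 reads for both together, miR-125b made up 66.5% of them in the estrus library of animal 3 (exact 95% interval 63.7 to 69.3), 58.2% in that of animal 1 (47.8 to 68.1), and 57.1% and 56.3% in the diestrus libraries of animals 2 and 3. The excess was larger than counting error only in the estrus library of animal 3. Both are mature miRNAs of nearly equal length, and a ligation-based library can favour one sequence over another, so this order is one of counted reads.

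The make-up of the member reads differed between the 2 libraries that held most of them. In the estrus library of animal 1, miR-99a-5p made up 93.8% of 1913 member reads (exact 95% interval 92.6 to 94.8), miR-125b 2.98% and miR-125a 2.14%. In the estrus library of animal 3, miR-125b made up 56.4% of 1306 member reads (53.6 to 59.1), miR-125a 28.3% (25.9 to 30.9), miR-100 7.04% and miR-99a-5p 4.06% (3.05 to 5.27). The intervals of miR-99a-5p, miR-125a and miR-125b do not overlap between these libraries. The other 4 libraries had 9 to 18 member reads. In these miR-125b was the most common member, with 4 of 9, 6 of 9, 8 of 14 and 9 of 18 reads, and the exact intervals of its share run from 13.7% to 92.5%.

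**Figure D2:**
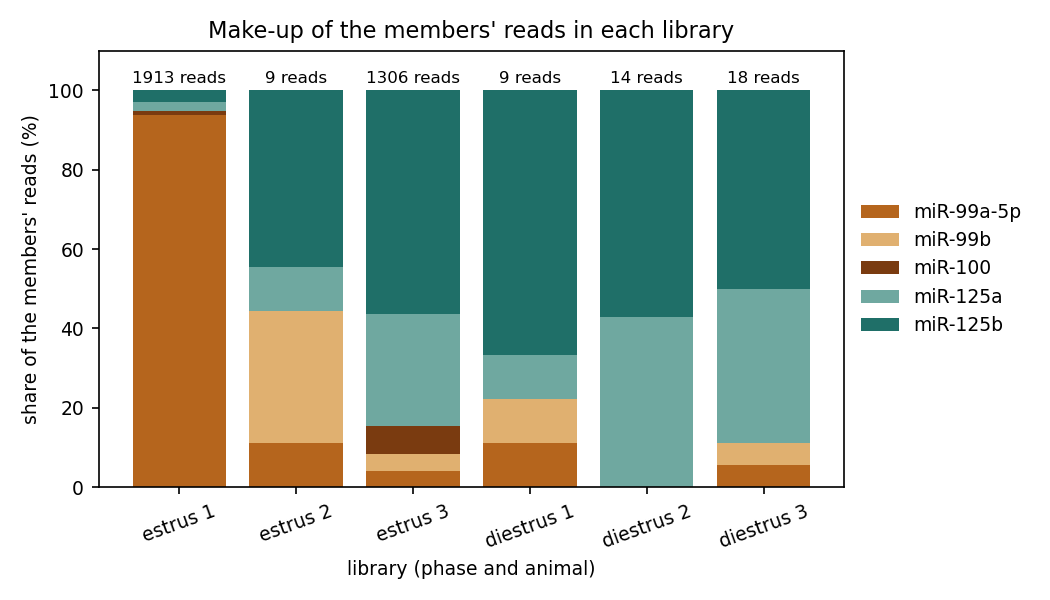
Make-up of the members' reads in each library, as stacked shares of the member reads (percent) with the number of member reads above each bar. miR-99a-5p fills 93.8% of the bar of the estrus library of animal 1, and miR-125b with miR-125a fills most of the bar of the estrus library of animal 3; the other 4 bars rest on 9 to 18 reads.

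Each member was set beside the let-7 miRNA of its cluster. At estrus let-7c had 965, 29 and 767 reads, and in the diestrus libraries 28, 39 and 11. miR-99a-5p made up 65.0% of the reads of this pair in the estrus library of animal 1 (exact 95% interval 63.2 to 66.8) but 6.46% in that of animal 3 (4.88 to 8.37). In the other 4 libraries it made up 0% to 8.33%, with upper limits of up to 38.5%. let-7c was thus the more abundant partner in 5 of 6 libraries. Between the estrus libraries of animals 1 and 3, let-7c differed by less than its partners: it held 5.72% and 2.84% of reads, while miR-99a-5p held 10.6% and 0.196% and miR-125b 0.338% and 2.72%. The ratio of miR-99a-5p to let-7c was 1.86 in the former and 0.0691 in the latter.

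In the cluster of miR-100, let-7a-5p exceeded miR-100 in all 6 libraries. It had 986 reads against 19 in the estrus library of animal 1 and 2679 against 92 in that of animal 3, so miR-100 made up 1.89% (exact 95% interval 1.14 to 2.94) and 3.32% (2.68 to 4.06) of the pair. These intervals overlap. let-7a-5p and let-7c, which are themselves nearly identical, had nearly equal reads in 5 libraries, where let-7c made up 47.5% to 52.4% of the pair. In the estrus library of animal 3 let-7c made up 22.3% (20.9 to 23.7). Here too reads may have been credited to the wrong miRNA, which would alter the shares given for the pairs with let-7c and let-7a-5p.

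In the cluster of miR-99b, let-7e had 70, 1 and 43 reads in the estrus libraries and 2, 0 and 1 in the diestrus libraries. miR-99b made up 2.78% of its pair with let-7e in the estrus library of animal 1 (exact 95% interval 0.338 to 9.68) and 56.1% in that of animal 3 (45.7 to 66.1). miR-125a made up 36.9% of its pair with let-7e in the former (28.0 to 46.6) and 89.6% in the latter (86.2 to 92.4). For both members the intervals of the 2 libraries do not overlap. miR-10a, a more distant relative of the miR-100 family, had 3 reads in the estrus library of animal 1 and 0 in the other 5. No row named miR-10b was in the deposited table.

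**Figure D3:**
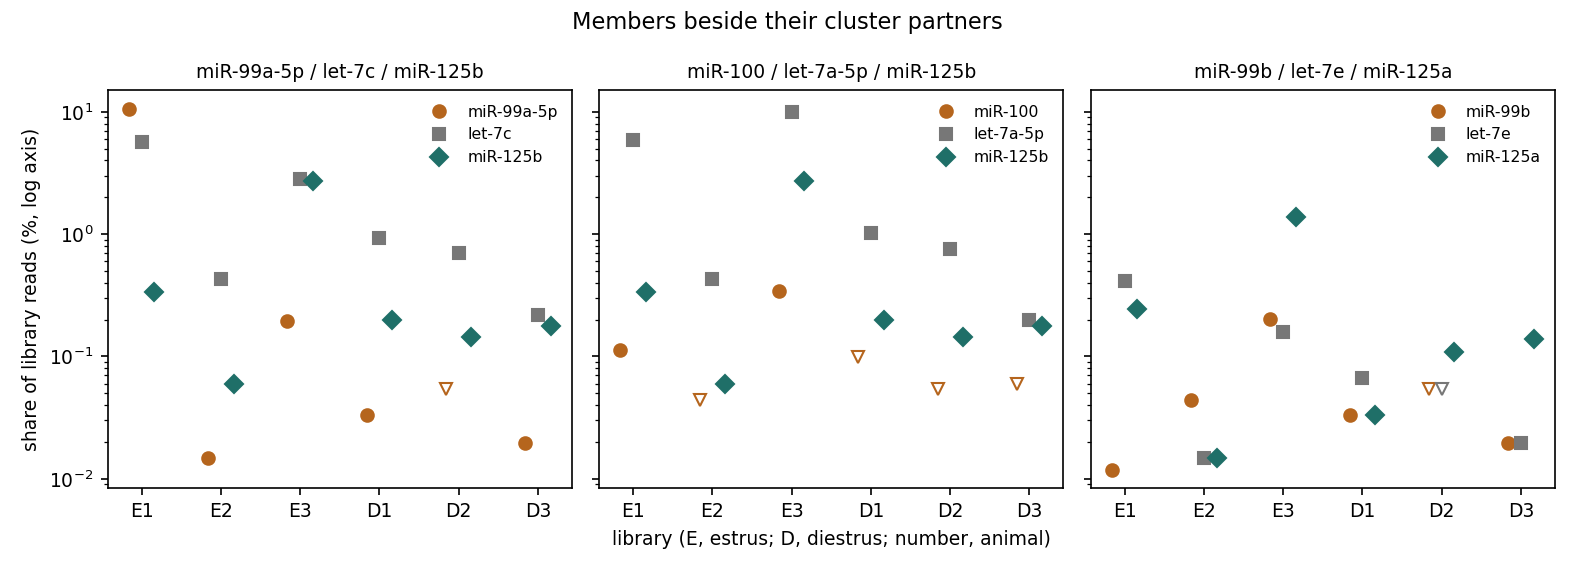
Share of library reads (percent, log axis) of each member beside the miRNAs of its cluster; circles are the miR-99 or miR-100 member, squares the let-7 partner, diamonds the miR-125 member, and open triangles mark 0 reads, drawn at the floor of 3 reads. In the first panel miR-99a-5p lies above let-7c at 10.6% in the estrus library of animal 1 and below it in the other 5 libraries, and in the second panel miR-100 lies below let-7a-5p in every library.

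The study's question was which salivary miRNAs differ between estrus and diestrus. Over all miRNAs it was addressed with limma on log2(normalized count + 1) for the 58 miRNAs with a mean of at least 5 normalized counts. miR-99a-5p, miR-125a and miR-125b passed this filter, while miR-99b and miR-100 were below it, so 3 of the 5 members were fitted. With Benjamini-Hochberg adjustment of the limma p-values at a threshold of 0.05, 0 of these 3 and 0 of all 58 miRNAs were called, a share of 0%. At an unadjusted p-value below 0.05, 8 of the 58 passed, 4 higher and 4 lower at estrus. miR-99a-5p was 1 of the 4 that were higher, which make up 6.90% of those tested, and since this contrast was known when the families were picked, nothing is read from it. edgeR and DESeq2 on the recovered reads also called 0 miRNAs, with 10 and 8 at an unadjusted p-value below 0.05.

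Fitted changes give the estrus mean less the diestrus mean of log2(value + 1), a scale on which changes of low miRNAs come out too small. The median change of all 58 miRNAs was 0.90. The change was 0.86 for miR-125a (standard error 1.48) and 0.87 for miR-125b (standard error 1.45), or -0.03 and -0.02 relative to that median. Without the estrus library of animal 3 these became -0.23 and -0.21, so their positive sign rests on that library. They were also negative, at -0.21 and -0.36, when totals without miR-1246 set the scale. miR-99a-5p changed by 3.66 (standard error 1.54), which lies 2.76 above the median. Its diestrus libraries were all under the floor, so this size depends on the pseudocount and is no bound. Without the estrus library of animal 1 the change of miR-99a-5p was 1.31, close to the median of 1.09 in that fit. Without the estrus library of animal 2, 6 of the 58 tested miRNAs passed the adjusted threshold. Among these 6 was miR-99a-5p, with a change of 5.30 (limma, adjusted p = 0.0107). Over all alternatives its adjusted p-value ranged from 0.0107 to 0.901 (limma or edgeR; DESeq2 gave none).

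By animal, miR-99a-5p was higher at estrus in all 3 on the deposited scale, by 704, 1.81 and 7.82 normalized counts, and in animal 2 this was 1 read against 0. Of the 58 tested miRNAs, 17.2% were higher at estrus in all 3 animals. miR-125a and miR-125b had higher estrus values in animals 1 and 3, but in animal 2 their differences were -7.96 and -5.80 normalized counts. No tested member had phases without overlap, which held for 6.90% of the tested miRNAs. miR-100 and miR-99b, below the filter, also overlapped.

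**Figure D4:**
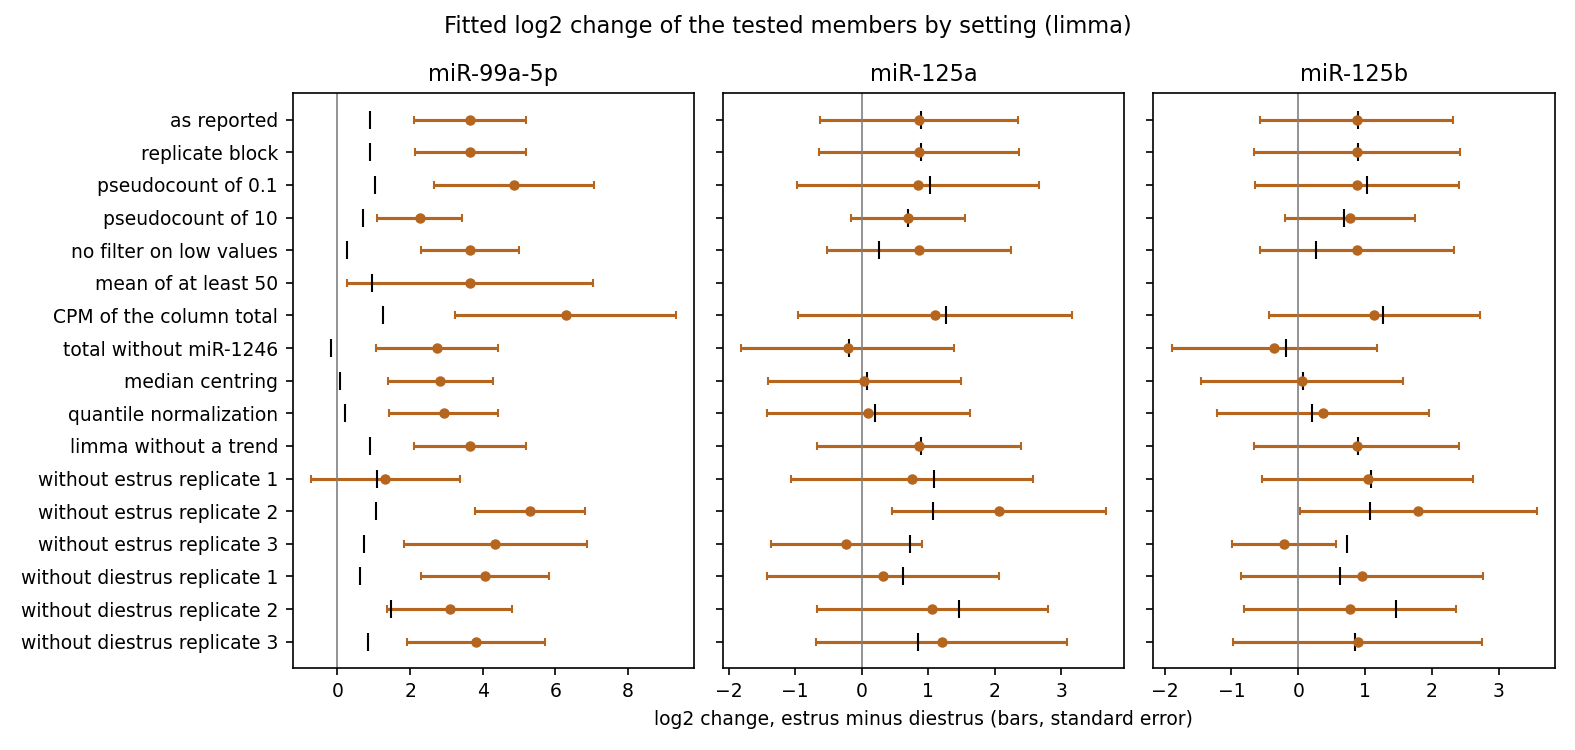
Fitted log2 change (estrus minus diestrus) of the 3 tested members under each limma setting; points are changes, bars are standard errors, and the black tick is the median change of all miRNAs in that fit. miR-99a-5p lies above 0 in each of these settings, at 1.31 without the estrus library of animal 1, and miR-125a and miR-125b lie close to the tick in most settings and below 0 without the estrus library of animal 3 and with totals that leave out miR-1246.

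The number of members found depended on the minimum of reads. At estrus 5, 4 and 5 of the 5 members had at least 1 read in animals 1, 2 and 3, against 4, 2 and 4 at diestrus. With at least 3 reads the numbers were 4, 2 and 5 at estrus and 1, 2 and 2 at diestrus. In 3015 reads, the depth of the shallowest library, the expected numbers were 4.30, 2.63 and 5.00 at estrus and 4, 1.99 and 3.19 at diestrus. miR-1246 fills a different part of those reads in each library. In 717 reads other than miR-1246, the fewest of any library and a setting chosen after seeing the data, the expected numbers were 3.40, 1.05 and 4.46 at estrus and 4, 1.80 and 3.07 at diestrus. The phases overlapped at both depths.

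Markers of other cell types were summed in the same libraries. Epithelial miRNAs, of which 7 of 8 listed names were in the table, held 1.10%, 0.163% and 9.41% of reads at estrus and 0.265%, 0.252% and 0.356% at diestrus. As shares of all reads they were higher in the estrus libraries of animals 1 and 3 than in the other 4, as the members were. The members held 11.3% and 4.83% there, the opposite order, through miR-99a-5p alone: the other 4 members held 0.705% and 4.63%, in the same order as the epithelial list. With miR-1246 left out of the total, these 4 members held 0.714%, 0.148% and 4.72% at estrus and 1.12%, 0.560% and 1.27% at diestrus. On that scale only the estrus library of animal 3 stood above the diestrus libraries for them. Over reads other than miR-1246 the epithelial list held 1.12%, 0.204% and 9.58% at estrus and 1.12%, 0.560% and 1.35% at diestrus. At diestrus these sums were mostly miR-205, with 7 of 8, 12 of 14 and 16 of 18 reads, and miR-205 had 17, 8 and 305 reads at estrus. The other 6 epithelial rows, split off after their values were seen, held 1.01%, 0.0556% and 8.43% of reads other than miR-1246 at estrus and 0.139%, 0.0800% and 0.150% at diestrus. All 7 epithelial rows were detected in both of these libraries, and 2 or 3 in each of the others. miR-375 and miR-200b had 0 reads in the estrus library of animal 2 and in all diestrus libraries. Leukocyte miRNAs, 5 of 6 names, held 0.575%, 1.07% and 2.29% at estrus and 3.68%, 1.77% and 3.62% at diestrus, or 0.582% to 2.33% and 3.92% to 15.5% over reads other than miR-1246, and most of these reads were miR-223. miR-142-5p had 13, 13 and 19 reads in the diestrus libraries against 2, 5 and 1 at estrus, while miR-150, miR-155 and miR-146a had reads only in the estrus library of animal 3. Mesenchymal and muscle miRNAs, 6 of 9 names, held 0.0593% to 0.332% of reads in the 6 libraries, and 0.0600% to 1.39% of reads other than miR-1246, the highest in the diestrus library of animal 1. miR-1, a muscle miRNA, had 7, 0 and 36 of the 10, 5 and 40 reads of this list at estrus and 5, 0 and 0 of its 10, 4 and 3 reads at diestrus, and miR-143 had at most 2 reads in any library. The erythrocyte list was represented by miR-486 alone, with at most 8 reads. The part of these cell types in the member levels was not tested.

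**Figure D5:**
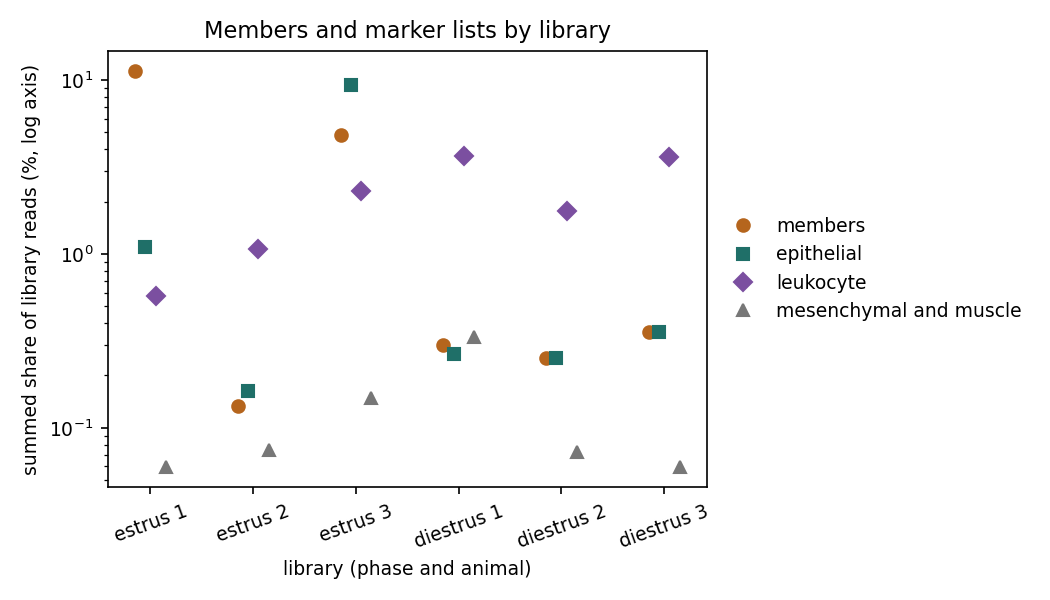
Summed share of library reads (percent, log axis) of the 5 members and of 3 marker lists in each library. In the estrus library of animal 1 the members (11.3%, or 0.705% without miR-99a-5p) lie above the epithelial list (1.10%) through miR-99a-5p, and in that of animal 3 the epithelial list (9.41%) lies above the members (4.83%).

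Of the tested miRNAs outside the families, those whose log2(value + 1) followed each member most closely over the 6 libraries were found by Pearson's r, given here as a description. For miR-99a-5p they were let-7e (r = 0.91), let-7c (0.82) and let-7a-5p (0.68). For miR-100 they were miR-375 (0.98), miR-200a (0.97) and let-7f (0.97). For miR-125a they were miR-26b (0.93), miR-200a (0.90) and miR-375 (0.86), and for miR-125b miR-184 (0.96), miR-26b (0.94) and miR-30d (0.94). For the sum of all members they were miR-200a (0.85), let-7e (0.85) and let-7c (0.83). Among the members, miR-125a and miR-125b were the closest pair (r = 0.89), miR-100 stood at 0.82 and 0.85 to them and at 0.69 to miR-99a-5p, and miR-99a-5p and miR-99b were at -0.053. These values rest on 6 libraries that also differ in depth. miR-375 had 25 and 659 reads in the estrus libraries of animals 1 and 3 and 0 in each of the other 4, and miR-200a had 30 and 292 reads there and at most 1 elsewhere. miR-26b had 14 and 524 reads in these libraries, and 1, 1, 4 and 5 in the others. Over the 4 libraries other than these, r was 0.96 for miR-99a-5p with let-7e, from at most 2 reads of each miRNA in a library. It was 1.00 for miR-125a with miR-26b, from at most 7 reads. With so few reads the values also follow the size factors of the libraries, which all miRNAs share. For miR-99a-5p with let-7c r was -0.097 and for miR-125b with miR-30d it was -0.28. For miR-100 no r could be computed there, since it had 0 reads in all 4.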

How the data were processed

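Cell-free saliva RNA was made into small RNA libraries with a kit that adds a molecular index at reverse transcription, per the labels' protocols. FastQC, cutadapt, UMI-tools, Bowtie, SAMtools, featureCounts and DESeq2 are named, without role or version, in the submitters' processing notes; the miRNA reference, genome build and index handling are not given in the sources used here. The authors deposited 1 table of normalized counts, a size-factor scaled signal. All values (100%) were whole multiples of 1 step per column within 0.01 reads, and these steps matched size factors recomputed by the median of ratios over 43 miRNAs above 0 everywhere, so reads were recovered. 3 columns had too few low values for the formal check of this.

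Samples were grouped by phase. Members, marker lists and tests were chosen with earlier results of these data known. Named miRNAs are all members, their cluster partners, miR-10a, miR-10b, miR-1246 and rows of the marker lists. For the sum and each member with at least 10 reads in 2 libraries, the 3 tested non-members with the highest r are also named. limma 3.58.1 (R 4.3.3, mean-variance trend) was fitted without a block. A trial on simulated data gave all libraries the same depth and used large changes. These libraries differ in depth, so the trial does not show how the fit performs here. Each test used 232 degrees of freedom, since limma estimated no spread of variances beyond the trend. Same-numbered libraries come from the same animal. Their deviations from the phase means correlated at -0.0046, 0.37 and 0.30 in animals 1, 2 and 3. Between libraries of different animals these correlations ran from -0.41 to 0.34, so the 2 ranges overlap. Alternatives were the animal block, other pseudocounts (0.1, 10), filters (none, or a minimum mean of 50) and scalings, no trend, edgeR 4.0.16, DESeq2 1.42.0 and leaving out each library. Other steps used Python 3.11.15 with numpy 2.4.6, pandas 2.3.3 and scipy 1.17.1.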

Additional observations from a re-analysis of the deposited data

How the results depend on the processing

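The count of called miRNAs, 0 as reported, was 1 (miR-1246) with totals without miR-1246 and 1 (miR-1246) with quantile normalization, and ranged from 0 to 6 over the fits that each left out 1 library. The count of called members ranged from 0 to 1 over those fits and was 0 in the other alternatives. The 1 was miR-99a-5p without estrus replicate 2, where 6 of all 58 tested miRNAs were called. With the replicate block that pairs libraries by animal, 0 miRNAs and 0 members were called, and edgeR with that block also called 0; the block changed no call. The change of miR-125a reversed to -0.21 and that of miR-125b to -0.36 with totals without miR-1246, and without estrus replicate 3 they reversed to -0.23 and -0.21; over all leave-outs they reached 2.06 and 1.80. The change of miR-99a-5p kept its sign in all 19 alternatives, from 1.31 to 7.40; DESeq2 gave it no p-value. A mean of at least 50 left only miR-99a-5p among the members. The difference in the members' share ranged from 2.18 to 7.78 percentage points over the leave-outs. It was 4.47 without miR-1246 in the total, 1.53 without miR-99a-5p and 0.878 without both. The difference in members detected, 1.33, was 0.916 at 3015 total reads, 0.016 at 717 reads other than miR-1246 (chosen after seeing the data), 2 with at least 3 reads and 0.667 to 1.67 over the leave-outs. The cause of the changes was not tested. Depth limits the diestrus libraries, with 9 to 18 member reads each, and the estrus library of animal 2, with 9.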
